A study of Mus musculus with 37 samples.

Results

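The data described here are the baseline transcriptome of the wild-type mouse heart at mid-gestation stage E10.5, measured by bulk paired-end RNA sequencing of dissected hearts. The wild-type hearts were taken by their titles, which give the genotype Nipbl +/+; Isl1 +/+, and they make up 10 of the 37 libraries of the series. No heart of another genotype enters any value below. Sires carried Stra8-iCre, a recombinase gene, with 1 Nipbl Flox allele, and dams carried a Cre gene in 1 allele of Isl1, so that the dams themselves were haploinsufficient for Isl1. Wild-type embryos of this cross received an unrecombined paternal Nipbl allele, which can be the Flox allele that the design counts as wild-type, and the maternal Isl1 allele without Cre. Whether an embryo also inherited Stra8-iCre is not given in the sources used here. The label of each library holds a further number after the letters IVF, whose meaning is not spelled out, and it is called the set number here: replicates 1, 2 and 3 belong to set 1, replicates 7, 9 and 10 to set 2, replicates 4 and 5 to set 5, and replicates 6 and 8 to set 6. The labels do not state that each library is 1 embryo, so the spread between libraries may hold technical as well as biological parts.

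At this stage the mouse heart is a looped tube whose atria and ventricles are taking shape. Its wall holds cardiomyocytes, whose sarcomeres drive the beat, lined inside by endocardium, which also gives rise to the mesenchyme of the cushions, the forerunners of the valves, and covered outside by the epicardium. Cells of the second heart field are added at the inflow and outflow ends. The lumen is filled with primitive red blood cells made in the yolk sac, which use embryonic globin genes.

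The deposited values were whole counts per gene symbol. Library totals ranged from 23.4 to 38.1 mega-counts with a median of 34.1, and each library registered 16632 to 17610 genes. Of 25239 gene rows, 15165 had a count in all 10 hearts and 5611 in none. Levels within a gene are given as CPM, counts scaled to the library total with TMM factors, and levels of different genes are compared as TPM, which divides by exon length before scaling to a fixed total. A count of 0 in a library allows a level of up to 0.0788 to 0.128 CPM, taken as 3 counts of its total, and this limit covers counting error only. Replicate 7, the shallowest library, stood apart on the first principal component, which held 25.2% of the variance: it lay at 63.8 and the next library at 5.12. The second component held 25.0% and ran from replicate 6 at -43.3 to replicate 3 at 40.4. All 45 pairs of libraries differed beyond sampling noise, with a chi-square per degree of freedom of at least 18, so that none was treated as the same library deposited more than once. This does not bear on whether different libraries come from 1 embryo.

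The most abundant transcripts came from blood and heart muscle, and their genes differ in whether their reads can be told from those of a near copy. The globin pairs are shown because this bears on their values. The coding sequences of Hbb-y and Hbb-bh1, the beta-type globins of primitive red cells, differ at 105 of 444 bases, and no 50-base word of either transcript was found in another gene of GENCODE M21. Those of Hba-a1 and Hba-a2, the adult alpha globins, differ at 1 of 429 bases, and Hba-a2 shares 86.9% of its 50-base words with Hba-a1. The first 150 coding bases follow, from M21 transcripts on GRCm38, with capitals at positions where the members of a pair differ. The embryonic pair differs at 43 of these 150 positions and the adult pair at 0.
Hbb-y: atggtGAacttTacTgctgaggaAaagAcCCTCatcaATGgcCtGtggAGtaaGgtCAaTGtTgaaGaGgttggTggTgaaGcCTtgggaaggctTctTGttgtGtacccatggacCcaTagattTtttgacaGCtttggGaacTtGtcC
Hbb-bh1: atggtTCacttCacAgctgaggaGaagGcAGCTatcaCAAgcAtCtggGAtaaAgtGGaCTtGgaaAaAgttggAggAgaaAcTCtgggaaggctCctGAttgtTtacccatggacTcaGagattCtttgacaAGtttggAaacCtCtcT
Hba-a1: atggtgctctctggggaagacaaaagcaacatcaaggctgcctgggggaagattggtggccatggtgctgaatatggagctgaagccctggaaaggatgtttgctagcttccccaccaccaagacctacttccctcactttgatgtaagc
Hba-a2: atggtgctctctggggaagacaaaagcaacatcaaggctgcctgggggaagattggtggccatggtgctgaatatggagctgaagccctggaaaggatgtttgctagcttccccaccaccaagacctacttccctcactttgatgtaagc

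The starts of 4 of the most abundant genes are shown because the embryonic globins moved together between hearts and varied more than the muscle genes. Each run covers 250 bases before to 50 after the start in RefSeq on GRCm38.p6, on the gene's strand: Hbb-y at chr7:103853158-103853457 (minus), Hba-x, the embryonic alpha-type globin, at chr11:32276350-32276649 (plus), Actc1, the cardiac actin, at chr2:114052826-114053125 (minus), and Myl7, the atrial regulatory light chain of myosin, at chr11:5898733-5899032 (minus). Capitals mark matches, on either strand, to the TATA box (spelled TATAAA), the CCAAT box (its name is its spelling), the motif of Krüppel-like factors (spelled CACCC), the motif of GATA factors (spelled GATAA) and the CArG box, the motif of the muscle factor Srf. In the Myl7 window the GATA motif overlaps a Krüppel-like motif by 1 base.
Hbb-y: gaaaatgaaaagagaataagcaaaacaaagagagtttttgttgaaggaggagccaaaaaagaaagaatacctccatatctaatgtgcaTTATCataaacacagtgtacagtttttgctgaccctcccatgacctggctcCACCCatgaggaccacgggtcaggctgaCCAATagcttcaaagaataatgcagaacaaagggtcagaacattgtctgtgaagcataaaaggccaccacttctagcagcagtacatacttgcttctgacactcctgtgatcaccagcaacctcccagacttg
Hba-x: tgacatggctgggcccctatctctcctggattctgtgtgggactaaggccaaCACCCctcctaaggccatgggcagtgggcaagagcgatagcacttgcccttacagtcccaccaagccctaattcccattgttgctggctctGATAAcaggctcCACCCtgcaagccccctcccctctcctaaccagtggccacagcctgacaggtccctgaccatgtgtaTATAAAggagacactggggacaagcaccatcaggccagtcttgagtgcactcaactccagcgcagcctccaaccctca
Actc1: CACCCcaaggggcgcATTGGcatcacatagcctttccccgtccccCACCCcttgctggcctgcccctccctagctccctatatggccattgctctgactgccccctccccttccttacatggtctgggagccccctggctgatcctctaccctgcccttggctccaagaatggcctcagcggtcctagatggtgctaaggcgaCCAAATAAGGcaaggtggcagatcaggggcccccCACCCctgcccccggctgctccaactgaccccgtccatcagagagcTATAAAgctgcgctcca
Myl7: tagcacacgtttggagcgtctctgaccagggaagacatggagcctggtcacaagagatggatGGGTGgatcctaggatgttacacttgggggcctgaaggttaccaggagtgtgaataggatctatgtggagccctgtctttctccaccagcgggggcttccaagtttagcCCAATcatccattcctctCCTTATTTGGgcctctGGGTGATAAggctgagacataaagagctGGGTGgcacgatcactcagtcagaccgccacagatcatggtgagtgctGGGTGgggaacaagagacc
Actc1 and Myl7 each held 1 CArG box, which was present in 1.63% of 32851 promoter windows of the same length. The Hbb-y and Hba-x windows held no CArG box, nor did that of Nppa, a further abundant muscle gene whose window is not shown. The Krüppel-like motif, present in 57.5% of all windows, occurred 1 time in Hbb-y, 2 in Hba-x, 3 in Actc1, 4 in Myl7 and 1 in Nppa. The GATA motif, present in 25.4%, occurred 1 time each in Hbb-y, Hba-x and Myl7, 2 times in Nppa and not in Actc1, so that neither motif set the globins apart. The TATA box, present in 13.6% of windows, was found in those of Hba-x, Actc1 and Nppa, and in Actc1 it lay after the start. The CCAAT box, present in 37.4%, was found in those of Hbb-y, Actc1 and Myl7. A match of letters is a description and not a measured binding site.

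Transcript levels spanned several orders of magnitude, as the plot of level against rank shows. A mean level of at least 1 TPM was reached by 12802 genes, at least 10 TPM by 8094, at least 100 TPM by 1562 and at least 1000 TPM by 139. The 10 genes with the highest mean CPM held 7.19% ± 1.68 (SD, n = 10) of all counts, the top 100 held 23.8% ± 2.44 and the top 1000 held 55.7% ± 2.55. The share of the top 10 was 6.32% in replicate 8 and 11.8% in replicate 7. Protein-coding genes took 97.9% ± 0.266 of counts and lincRNAs 1.40% ± 0.214, most of the latter from H19.

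**Figure D1:**
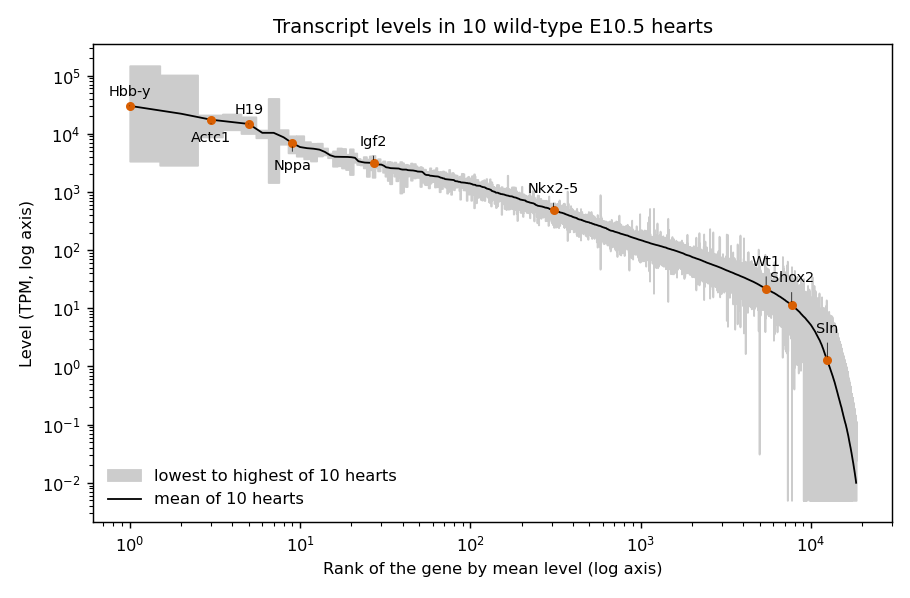
Level of each gene in TPM (log axis) against its rank by mean level (log axis); the line is the mean of 10 wild-type hearts and the grey band runs from the lowest to the highest heart, with values under 0.005 TPM drawn at 0.005. Hbb-y leads with a mean of 30182 TPM and a wide band, while Actc1 and H19 follow with narrow ones.

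Heart muscle genes filled 7 of the 20 highest mean levels. Actc1 stood at 17452 ± 3333 TPM (mean ± SD, n = 10), Myl7 at 15886 ± 3025 TPM, Tnnc1, the calcium-binding troponin of slow and cardiac muscle, at 5909 ± 1601 TPM and Myl2, the ventricular regulatory light chain, at 5653 ± 1359 TPM. Myl3, an essential light chain, had 4032 ± 811 TPM, Acta2, the smooth muscle actin that the embryonic heart also makes, 3955 ± 969 TPM, and Nppa, which encodes the hormone ANP, 6905 ± 1332 TPM. These genes were high in every heart: Actc1 had a lowest value of 7463, a median of 9638 and a highest of 12108 CPM, and Nppa had a lowest value of 1516, a median of 2016 and a highest of 2689 CPM. Tnnc1, the most uneven of the 7 muscle genes, ran from 1249 to 3628 CPM, so that no heart lacked any of them. TPM has a fixed total, so that Hbb-y, at 147780 TPM in replicate 7, lowers the TPM of other genes there. SDs of TPM include this part: Trim8, a gene with a small spread in CPM, ran from 72.5 to 76.3 CPM but from 37.8 to 70.1 TPM. Which genes lead depends on the length by which counts are divided, here that of all exons of a gene together. With the longest transcript as length, 16 of the 20 genes stayed and 6 of them were muscle genes, since Acta2 went from 20th to 34th. Myl2 then stood at 9237 TPM, and Tnnt2, the cardiac troponin T, went from 1654 TPM and rank 73 to 2868 TPM and rank 37.

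The other leading transcripts came from red blood cells, imprinted growth genes and the translation machinery. Hbb-y had 30182 ± 42577 TPM, Hbb-bh1 22115 ± 29407 TPM and Hba-x 10375 ± 11443 TPM, with SDs larger than the means for each of the 3. By the median heart, which replicate 7 does not pull up, Actc1 led at 18152 TPM, and Hbb-y stood at 17431, Myl7 at 15790, H19 at 14982, Hbb-bh1 at 13403 and Hba-x at 6750 TPM. H19, an imprinted RNA made from the maternal allele, had 14740 ± 2992 TPM, and Cdkn1c, an imprinted inhibitor of cell division, 5534 ± 987 TPM. Igf2, the growth factor whose gene neighbours H19, ranked 27th with 3111 ± 796 TPM, a level that is uncertain because 75.9% of its words of 50 bases also occur in 1 other gene. The elongation factor Eef1a1 had 10378 ± 983 TPM and the chaperone Hsp90ab1 3997 ± 609 TPM. The 6 ribosomal protein genes, Rplp1, Rps15, Rps3a1, Rplp0, Rpl36 and Rpl41, completed the 20, with means of 4003 to 8707 TPM. Between 31.5% and 81.1% of the 50-base words of these ribosomal transcripts also occur in other genes, so their levels are uncertain. All 83 cytosolic ribosomal protein symbols together took 7.47% ± 1.48 of counts, from 5.59% in replicate 6 to 9.81% in replicate 7.

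Sarcomere genes of fetal and of adult type were both present. All 29 listed genes had a mean of at least 1 TPM, and their summed level ran from 51299 CPM in replicate 6 to 76575 CPM in replicate 4. The alpha and beta myosin heavy chains Myh6 and Myh7, which mark the adult and the fetal ventricle in mice, stood at 2425 ± 667 and 2455 ± 716 TPM, a difference smaller than either SD. Of their 50-base words, 22.6% and 22.2% also occur in other genes. The slow skeletal troponin I Tnni1, the fetal form, was at 2012 ± 387 TPM and the cardiac form Tnni3 at 971 ± 166 TPM. Myl4, the atrial essential light chain, had 2536 ± 489 TPM and Acta1, the skeletal actin, 1330 ± 430.2 TPM. Of the calcium-handling genes, the pump Atp2a2 had 814 ± 251 TPM, its inhibitor phospholamban, Pln, 292 ± 94.3 TPM and the release channel Ryr2 21.2 ± 7.46 TPM. The atrial pump inhibitor Sln, abundant in the mature atrium, was low at a lowest value of 0, a median of 0.591 and a highest of 1.61 CPM.

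Cardiac transcription factors were present in all hearts. All 20 listed factors exceeded a mean of 1 TPM, and 0 of 20 reached a biological coefficient of variation (BCV) of 0.3, which 517 of 10794 genes (4.79%) did. A share of 0 of 20 is near that of all genes, and the median BCV of the factors was 0.162, above the 0.134 of all genes. The BCV is the spread between hearts beyond counting error, as a fraction of the level. Nkx2-5, an early heart regulator, had a lowest value of 217, a median of 302 and a highest of 352 CPM. Gata4 had a lowest value of 211, a median of 256 and a highest of 276 CPM, with a BCV of 0.0965, and Hand2 ran from 150.4 to 196 CPM with a BCV of 0.0788. Srf, which drives muscle genes through the CArG box, ran from 176 to 219 CPM with a BCV of 0.0626, or 0.0416 without replicate 7. Tbx5, a factor of the atria and the left ventricle, ran from 63.1 to 96.1 CPM. The summed level of the 20 factors was lowest in replicate 7, at 1693 CPM, against 2070 to 2418 CPM in the others. Of the genes the study alters, Nipbl, which loads cohesin on DNA, ran from 45.7 to 75.8 CPM, and Isl1, a factor of second heart field and pacemaker cells, from 4.85 to 8.55 CPM in 9 hearts and 12.6 CPM in replicate 7.

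Genes listed for both chambers and their subdivisions were detected. The lists share members, such as Nppa in the atrial and trabecular lists, so that a list sum does not measure the amount of a chamber. All 9 ventricular genes exceeded 1 TPM, with a sum of 4430 to 9371 CPM, and all 11 atrial genes did so, with a sum of 6991 to 14982 CPM; most of the latter came from Myl4, with a lowest value of 2521, a median of 3985 and a highest of 6110 CPM, from Myl7, with a lowest value of 2162, a median of 3392 and a highest of 5211 CPM, and from Nppa. At a BCV of 0.3 or more were 0 of 9 ventricular, 4 of 10 atrial and 3 of 8 trabecular genes with a mean of at least 5 CPM, against 4.79% of all genes. With the set number in the design, where 360 of all genes (3.34%) reached 0.3, these counts were 0, 4 and 1. Replicate 3 was highest on the ventricular and the atrial list and replicate 6 lowest on both. Irx4, a ventricular factor, had a lowest value of 64.0, a median of 95.8 and a highest of 132 CPM, with replicate 2 highest, and Hcn4, the pacemaker channel, a lowest value of 49.5, a median of 63.7 and a highest of 98.3 CPM. Nppb, the partner hormone of Nppa in the trabeculae, ran from 139.6 to 383 CPM. Bmp10, a trabecular growth factor, had a lowest value of 5.60, a median of 10.4 and a highest of 30.0 CPM. It was highest in replicates 6 and 8, at 30.0 and 29.5 CPM, then in replicate 5 at 21.8 CPM, and the other hearts lay at 5.60 to 11.7 CPM.

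Endocardium, cushion mesenchyme and epicardium were detected in every heart. All 20 endothelial and endocardial genes exceeded 1 TPM, and their sum ran from 1165 to 1487 CPM with 0 of 18 members of at least 5 CPM at a BCV of 0.3 or more and a median BCV of 0.160, where all genes had 4.79% and 0.134, so that this count is near that of all genes and the median above it. Cdh5, the endothelial cadherin, had a lowest value of 96.4, a median of 128 and a highest of 156 CPM, and Npr3, an endocardial receptor, a lowest value of 83.7, a median of 123 and a highest of 149 CPM. The cushion list summed to 913 to 1311 CPM. Its matrix proteoglycan Vcan ran from 363 to 696 CPM and its factor Sox9 from 31.2 to 42.8 CPM, whereas Postn, a matrix protein of the valves, ran from 33.0 to 110 CPM. Of 12 epicardial genes of at least 5 CPM, 5 reached a BCV of 0.3, and their median was 0.255, but with the set number in the design 0 of the 12 did. The epicardial factor Wt1 had a lowest value of 37.4, a median of 46.5 and a highest of 54.1 CPM and a BCV of 0.0917, and Tbx18 ran from 50.2 to 74.0 CPM. The mesothelial surface gene Upk3b ran from 73.0 to 181 CPM and Tcf21, a factor of epicardial fibroblast precursors, from 29.0 to 71.5 CPM. In bulk RNA, fewer cells of a type and less RNA per cell cannot be told apart.

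Many defining markers of tissues outside the heart were close to 0 in most hearts, while the sums of their lists were not. The neural crest list summed to 261 to 329.7 CPM with 5 of 12 genes over 1 TPM, the foregut endoderm list to 141 to 306 CPM with 4 of 12, the neuron list to 41.7 to 70.2 CPM with 5 of 12 and the skeletal muscle list to 455 to 1079 CPM with 3 of 8. Single genes carried much of these sums: Hand2, also a cardiac factor, in the first, the keratins Krt8, at 84.6 to 192 CPM, and Krt18, at 50.2 to 108 CPM, in the second, the tubulin Tubb3, at 17.7 to 46.2 CPM, in the third and the actin Acta1, at 429 to 1054 CPM, in the fourth. The macrophage list summed to 13.0 to 26.1 CPM with 7 of 13 genes over 1 TPM. Csf1r, the growth factor receptor of macrophages, was at 1.87 to 3.60 CPM. Sox10, a factor of migrating neural crest, was at 0.456 to 1.20 CPM. Shh and Neurod1 had 0 counts in all 10 hearts, which over all libraries allows a level of up to 0.00912 CPM each, and Myf5, Myod1, Pax3 and Pax7 each reached at most 0.149 CPM, the value of Pax3 in replicate 5. The platelet list went the other way, with 9 of 9 genes over 1 TPM and a sum of 48.0 to 107 CPM. Pf4, a platelet chemokine, was at 7.65 to 27.6 CPM.

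Single hearts departed from this. In replicate 6 the epithelial genes Cdh1, Epcam and Cldn6 were at 4.39, 4.21 and 3.79 CPM, against ranges in the other 9 hearts of 0 to 0.469, 0.285 to 0.828 and 0 to 0.130 CPM. In replicate 8 the liver and yolk sac gene Afp was at 12.1 CPM, Alb at 1.01, Fgb at 0.492 and Hnf4a at 0.383 CPM. In the other 9 hearts Afp lay at 0 to 1.81, Alb at 0 to 0.150, Fgb at 0 to 0.0752 and Hnf4a at 0 to 0.0502 CPM. Replicate 6 was second for Afp, at 1.81 CPM. The liver list of 12 genes, Afp, Alb, Fgb and Hnf4a among them, summed to 30.6 CPM in replicate 8 and to 10.3 to 21.6 CPM in the others. Afp made up 12.1 CPM of the sum in replicate 8, and the other list members are not given here. What the dissections of these hearts held was not tested.

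**Figure D2:**
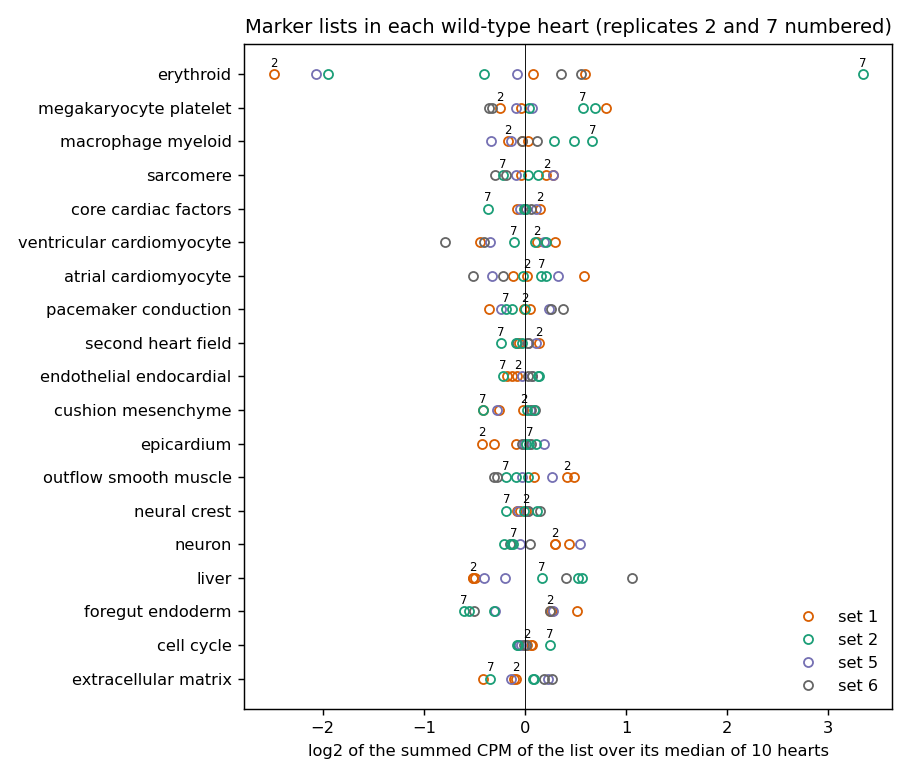
Summed CPM of each marker list in each of 10 wild-type hearts, as the log2 ratio to the median heart; points are hearts coloured by set, with replicates 2 and 7 numbered. The erythroid list spreads over a range from 1829 to 103720 CPM, while the endothelial and cell cycle lists stay near their medians.

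Of the 30 gene lists, the erythroid list varied most in its sum. The erythroid list summed to 1829 CPM in replicate 2, 2451 in replicate 5, 2646 in replicate 10, 7744 in replicate 9, 9688 in replicate 4, 10781 in replicate 3, 13110 in replicate 8, 15026 in replicate 6, 15484 in replicate 1 and 103720 CPM in replicate 7. The highest was 56.7 times the lowest, and replicate 7 lay far from the others, with 9.11% of its counts in this list against at most 1.63% elsewhere. All 11 members with a mean CPM of at least 5 had a BCV of 0.3 or more, against 4.79% of all genes. Hbb-y had a lowest value of 719, a median of 4312 and a highest of 48889 CPM, Slc4a1, the anion exchanger of the red cell membrane, a lowest value of 21.6, a median of 103 and a highest of 900.3 CPM, and Alas2, the first enzyme of haem synthesis in red cells, a lowest value of 14.7, a median of 62.0 and a highest of 658 CPM. Each of these was lowest in replicate 2 and highest in replicate 7. Gata1, the erythroid master factor, ran from 2.97 to 80.5 CPM. Without replicate 7 the BCV of Hbb-y was 0.725, against 1.19 with it, and the coefficient of variation of the list sum was 61.9%, against 167% with it.

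Embryonic globins were counted in great numbers and adult ones hardly at all. Over the 10 hearts Hbb-y had 2140311 counts, Hbb-bh1 1526211 and Hba-x 1096644. Hba-a1 had 2 counts, both in replicate 7, and Hba-a2, Hbb-bs and Hbb-bt had 0. Hba-a1 shares 67.5% of its 50-base words, Hbb-bs 65.8% and Hbb-bt 58.3% with the other member of its pair. How reads that match more than 1 gene were counted is not given in the sources used here, so the adult globins are listed at 0 without a statement that they were silent.

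Most genes varied little between hearts. Of 10794 genes with a mean of at least 5 CPM, the median BCV was 0.134, 3064 (28.4%) were under 0.1, and 517 (4.79%) reached 0.3, 120 reached 0.5 and 28 reached 1. Just under and over the threshold of 0.3 stood Adamts5 at 0.2998 and Malsu1 at 0.3, then Prkag3 at 0.3001 and Tes at 0.3005. Of the 517 variable genes, 228 (44.1%) were highest in replicate 7, which was highest for 16.7% of all genes, and 145 (28.0%) were lowest in replicate 2, which was lowest for 6.52% of all genes. A Spearman rho of at least 0.8 with the erythroid sum over the 10 hearts was found for 22.8% of the variable genes and 1.81% of all genes, as a description of hearts that share their depth and set. Without replicate 7, 392 genes reached 0.3, of which 363 were among the 517. With the set number in the design 360 did, of which 323 were among the 517.

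The 15 most variable genes off the sex chromosomes included the embryonic globins and other red cell genes, and their order rests on replicate 7. Pdzk1ip1, which encodes a small membrane protein, had a BCV of 1.22, with a lowest value of 0.917, a median of 5.32 and a highest of 72.1 CPM. Besides Hbb-y, Hbb-bh1 and Hba-x, the group included Rhd, Rhag and Icam4 of the blood group proteins, Epb42 of the membrane skeleton, and the erythroid genes Hemgn and Trim10. It also included 1300017J02Rik and Lmx1a, a factor otherwise known from neurons. The BCV of these ran from 1.06 to 1.19, and each was highest in replicate 7. Lmx1a had a lowest value of 0.727, a median of 4.44 and a highest of 43.9 CPM, and was lowest in replicate 2 and highest in replicate 7, as were Rhd and Hemgn. Without replicate 7 the BCV of Pdzk1ip1 was 0.675, that of Rhd 0.676, that of Icam4 0.660 and that of Hbb-bh1 0.743, while Hemgn had 0.810, and Smoc2 and Shox2, at 0.995 and 0.971, then exceeded each gene named here.

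Shox2 and Smoc2, also among these 15, were highest in replicates 6, 7 and 8. Shox2, a factor of the sinus venosus and pacemaker, was at 0.822 CPM in replicate 2, 1.97 in replicate 10, 2.39 in replicate 3, 5.54 in replicate 4, 8.56 in replicate 1, 9.60 in replicate 5, 9.80 in replicate 9, 22.9 in replicate 6, 27.3 in replicate 8 and 46.4 CPM in replicate 7. Smoc2, a secreted matrix protein, was highest in the same 3 hearts, at 28.6 CPM in replicate 7, 18.2 in replicate 6 and 9.77 in replicate 8, against 0.696 to 4.01 CPM elsewhere. Replicate 2 was also lowest for other list genes, of which 4 are given first, picked after their values were seen. Osr1, a factor of the posterior second heart field, was at 0.285 CPM there and 3.94 to 11.7 CPM elsewhere, and Nr2f1, an atrial factor, at 6.74 and 23.8 to 50.6 CPM. Nr2f2, its relative in atria and veins, was at 14.4 and 37.3 to 58.1 CPM, and Aldh1a2, which makes retinoic acid, at 7.46 and 12.6 to 36.9 CPM. For each of these 4 genes replicate 2 lay below every other heart. The lists they come from did not move alike: in replicate 2 the epicardial sum was the lowest of the 10, at 443 CPM, and the second heart field sum the highest, at 239 CPM. The atrial sum there was 10110 CPM (median 10005), most of it from Myl4, Myl7 and Nppa. Of the atrial list, Stard10, at 32.0 CPM, Kcna5, at 11.5 CPM, and Angpt1, at 43.2 CPM, were also lowest in replicate 2. Myl4, Myl7, Myl1, Nppa, Sln and Tbx5 were not. The pacemaker sum there was 525 CPM (median 527), and Hcn4 was at 75.5 CPM, above its median. The part of the heart included at dissection was not tested.

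**Figure D3:**
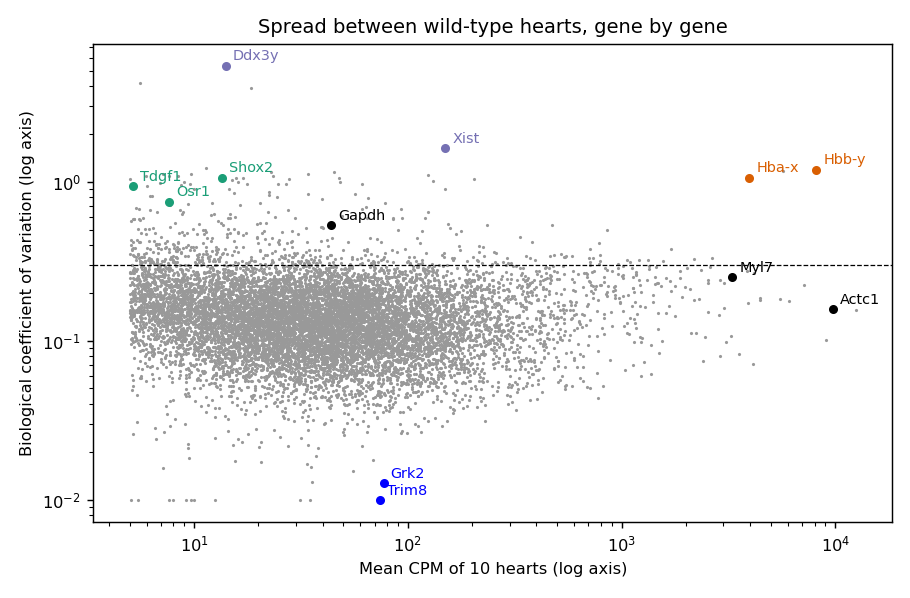
BCV of each gene with a mean of at least 5 CPM against its mean CPM (both log axes) over 10 wild-type hearts; the dashed line is the threshold of 0.3 and each point is a gene. Globins, Shox2 and sex chromosome genes lie far above the bulk, Gapdh lies above the line at 0.532, and Trim8 and Grk2 mark the lower edge.

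Sex chromosome genes split the hearts cleanly. Xist, the RNA that silences 1 X chromosome in females, was at 0.306, 0.351 and 0.292 CPM in replicates 4, 6 and 7 and at 141 to 331 CPM in the other 7. The Y-linked gene Ddx3y was at 46.8, 49.0 and 44.5 CPM in replicates 4, 6 and 7 and had no counts elsewhere. Eif2s3y, Kdm5d and Uty of the Y chromosome were at 12.5 CPM or more in the same 3 hearts and at most 0.0316 CPM in the others. Kdm6a, the X-linked counterpart of Uty, ran from 14.8 to 38.4 CPM without such a gap. All 3 hearts of set 1 were of the Xist-expressing kind, and the other 3 sets held 1 each of the Y-expressing kind.

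**Figure D4:**
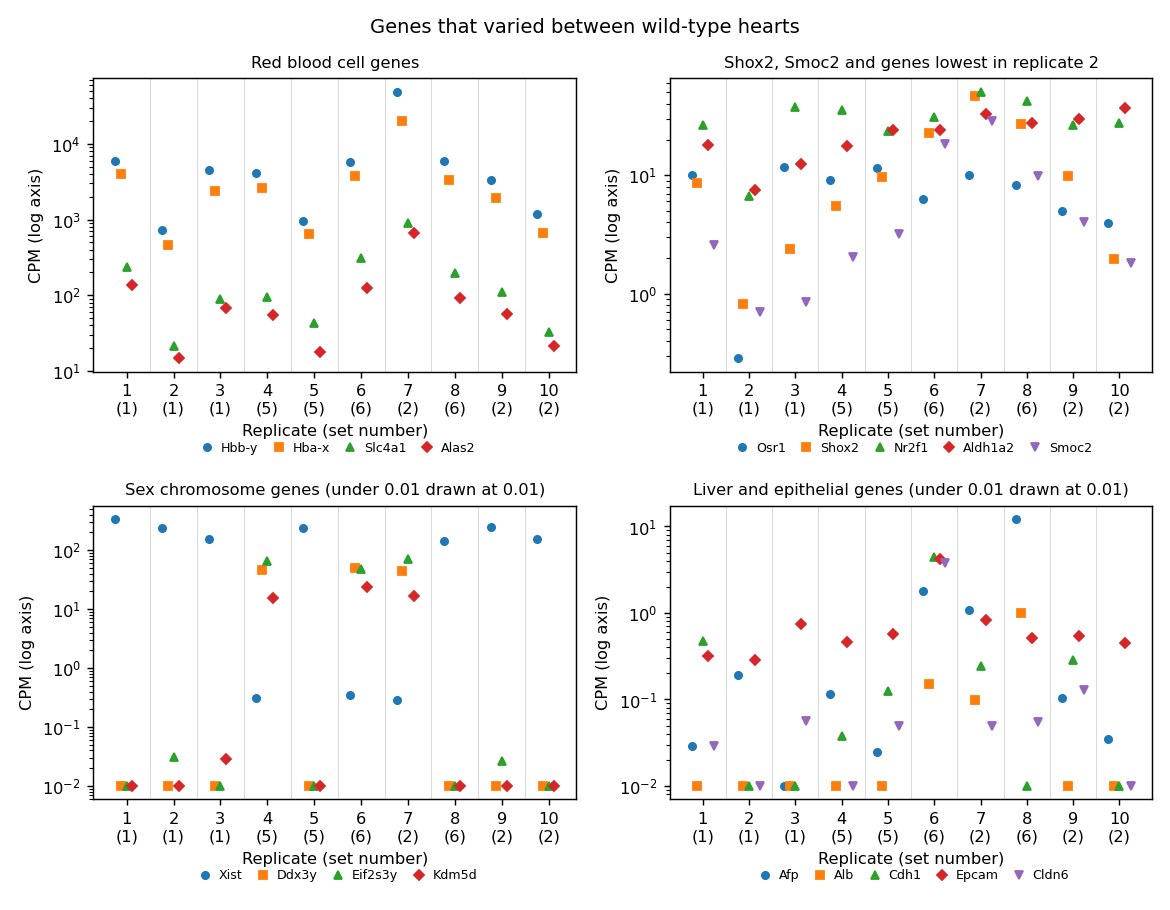
CPM (log axis) of selected genes in each of 10 wild-type hearts, with the set number in brackets under the replicate number; each symbol is 1 gene. Red cell genes peak in replicate 7, Osr1 and Nr2f1 are lowest in replicate 2, Y-linked genes appear in replicates 4, 6 and 7, and Afp and Cldn6 stand out in replicates 8 and 6.

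At the other end stood the genes with the smallest estimated spread. Among genes with a mean of at least 50 CPM, Trim8, a ubiquitin ligase, had a lowest value of 72.5, a median of 74.2 and a highest of 76.3 CPM. Its BCV of 0.00988 is the lower end of the range that the estimate can take. Grk2, a kinase of G protein-coupled receptors, had a lowest value of 74.0, a median of 77.4 and a highest of 79.5 CPM, with a BCV of 0.0127, and Dctn4, a dynactin subunit, a lowest value of 52.1, a median of 55.5 and a highest of 57.3 CPM. Dnaja3, Eml2, Mtmr2, Flot2, Cyhr1, Zfand5 and Mapkap1 completed the 10 steadiest, with BCVs of 0.0178 to 0.0268. The ratio of the highest to the lowest heart was at most 1.15 among these 10, the value for Mtmr2. These estimates depend on the scaling and the estimator: the BCVs of the 10 were 0.0505 to 0.0885 with library totals only and 0.092 to 0.0974 with the default moderation of edgeR, where Trim8 had 0.0683 and 0.092.

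Genes often used as references were not equally steady. Gusb had a BCV of 0.0583 with a lowest value of 52.2, a median of 57.1 and a highest of 64.3 CPM, and Pgk1, a glycolytic enzyme, one of 0.0841. Gapdh was at 31.5 ± 23.5 TPM, whereas Pgk1 was at 1947 ± 312 TPM, and the BCV of Gapdh was 0.532. Gapdh had a lowest value of 19.8, a median of 36.0 and a highest of 112 CPM, with the highest value in replicate 5. Of the 50-base words of Gapdh, 82.5% also occur in other genes, 218 in number, while for Eef1a1 and Rps3a1, both among the 20 most abundant genes, the shares were 59.2% and 71.0%. Pgk1 shares 68.0% of its words, with 5 other genes, so that its level is uncertain too. How such reads were counted was not tested.

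Among 8 gene pairs chosen to compare cell types across the 10 hearts, 3 moved together by Pearson correlation of log2 CPM, with two-sided permutation p-values from 100000 resamples adjusted over the 8 pairs. Hbb-y and Hba-x had r = 0.995 (permutation adjusted p = 1.60e-04), Spearman rho = 0.976 (permutation adjusted p = 1.60e-04) and r = 0.992 without replicates 2 and 7. Cdh5 and Pecam1, both endothelial adhesion genes, had r = 0.969 (permutation adjusted p = 1.60e-04), rho = 0.976 (permutation adjusted p = 1.60e-04) and r = 0.944 without replicates 3 and 4. Myl2 and Myl7 had r = 0.813 (permutation adjusted p = 0.00661), rho = 0.818 (permutation adjusted p = 0.0161) and r = 0.847 without replicates 1 and 6. Centred within sets, the r of these 3 pairs was 0.997, 0.985 and 0.723.

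The other 5 pairs did not pass. Nppa and Myl7 had r = 0.594 (permutation adjusted p = 0.139) and rho = 0.527 (permutation adjusted p = 0.247), and r = 0.376 without replicates 3 and 10. Wt1 and Upk3b had r = 0.0796 (permutation adjusted p = 0.873) and rho = 0.0424 (permutation adjusted p = 0.975), and r = 0.659 without replicates 1 and 7. Centred within sets, these became 0.913 (permutation adjusted p = 0.00101) and 0.764 (permutation adjusted p = 0.0188). Hbb-y had r = -0.293 with Tnnt2, rho = -0.406, and r = 0.449 with Afp, rho = 0.321, and Postn and Sox9 had r = -0.0196, rho = -0.0182. Permutation adjusted p-values of these 3 were 0.554, 0.380 and 0.958 for r and 0.395, 0.489 and 0.975 for rho.

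The hearts of set 1 differed from the rest in a small share of genes, among them Tdgf1, Lin28a and 3 fibrillar collagens. By edgeR's quasi-likelihood test, with p-values adjusted over 15044 genes after Benjamini and Hochberg, 110 genes (0.731%) differed between set 1 and the mean of the other 3 sets at an adjusted p under 0.05. Of these, 35 (0.233%) were higher and 75 (0.499%) lower in set 1. What the set number marks is not stated, and all 3 set 1 hearts expressed Xist, so sex is not balanced between the sets. In 107 of the 110 genes the 3 set 1 hearts did not overlap the other 7, as the choice of genes by the same test would lead to; over all genes tested it held for 6.91%.

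Genes higher in set 1 included Tdgf1, Lin28a, Fgf8 and Lmod1. Tdgf1, a Nodal co-receptor of early embryos and the outflow tract, was at 9.61, 18.8 and 8.91 CPM in the set 1 hearts and 1.07 to 3.52 CPM in the others, a log2 difference of 2.61 ± 0.26 (SE; edgeR adjusted p = 0.00595). Set 1 did not overlap the other sets, and replicate 2 was highest. Lin28a, an RNA-binding protein that blocks let-7 maturation, was at 24.8, 21.2 and 19.7 against 6.36 to 15.8 CPM (log2 difference 0.98 ± 0.12, edgeR adjusted p = 0.0144). Fgf8, a growth factor of the second heart field, was at 4.78, 7.34 and 5.04 against 0.731 to 2.02 CPM (log2 difference 1.76 ± 0.24, edgeR adjusted p = 0.0159). Lmod1, a leiomodin of smooth muscle, was at 54.6, 51.3 and 52.2 against 23.4 to 33.2 CPM (log2 difference 0.85 ± 0.08, edgeR adjusted p = 0.00595). None of these 4 overlapped between set 1 and the rest. The imprinted Kcnq1ot1 and Phlda2, 2 of 17 imprinted genes tested where 0.233% of all genes were called higher, also passed, with log2 differences of 0.97 and 1.03, and the neuronal pentraxin Nptx2, with 0.84. Without replicate 2 none of the 7 genes named here passed by edgeR, and without replicate 3 those that did were Tdgf1 and Lmod1. Phlda2 lost its call in 8 of 15 alternative settings.

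Genes lower in set 1 included fibrillar collagens. Col1a2 was at 92.7, 68.6 and 66.1 CPM in the set 1 hearts and 153 to 264 CPM in the others, a log2 difference of -1.44 ± 0.14 (edgeR adjusted p = 0.00595), and Col1a1, its partner chain, at 90.4, 60.5 and 55.0 and 153 to 318 CPM (log2 difference -1.52). Col3a1, the collagen III chain, was at 233, 212 and 213 and 275 to 423 CPM (log2 difference -0.81). Again the 3 set 1 hearts lay below the other 7. These were the 3 of 22 extracellular matrix genes that passed, all lower, where 0.499% of all genes were called lower. Of the 22, 20 had a negative log2 difference, with a median of -0.41, against 7678 of all 15044 genes and a median of -0.01. Dcn, the proteoglycan decorin, had a log2 difference of -1.31 ± 0.18 (edgeR adjusted p = 0.0159). Sfrp1, a Wnt antagonist, was at 67.1, 58.9 and 71.9 against 107 to 143 CPM (log2 difference -0.95 ± 0.09, edgeR adjusted p = 0.00595). Without replicate 2 none of these 5 genes passed by edgeR, and without replicate 3 Sfrp1 did. Col3a1 lost its call in 7 of 15 alternative settings.

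Further genes were also lower in set 1. The mesothelial keratin Krt7 had a log2 difference of -0.997 and the epicardial Wnt agonist Rspo1 one of -0.78, the only epicardial gene of 13 tested to pass, where 0.499% of all genes were called lower. Foxc1, a second heart field factor, had -0.70 and Casq2, the calcium store protein of cardiac muscle, -0.82, 1 gene each of 15 and 17 tested to be lower. Of 15 alternative settings, Rspo1 and Casq2 each lost their call in 7 and Foxc1 in 5. Gpm6a and Snap91, genes otherwise best known from neurons, had -1.23 and -1.47, and Smpd3, a sphingomyelinase, -1.61. The 110 calls depended on single libraries: the count was 0 without replicate 2, 3 without replicate 3, 11 without replicate 8, 51 without replicate 1, 40 without replicate 5, 53 without replicate 6, 31 without replicate 9, 35 without replicate 10, 258 without replicate 7 and 351 without replicate 4. It was 482 with the Xist level as a covariate and 951 with DESeq2.

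**Figure D5:**
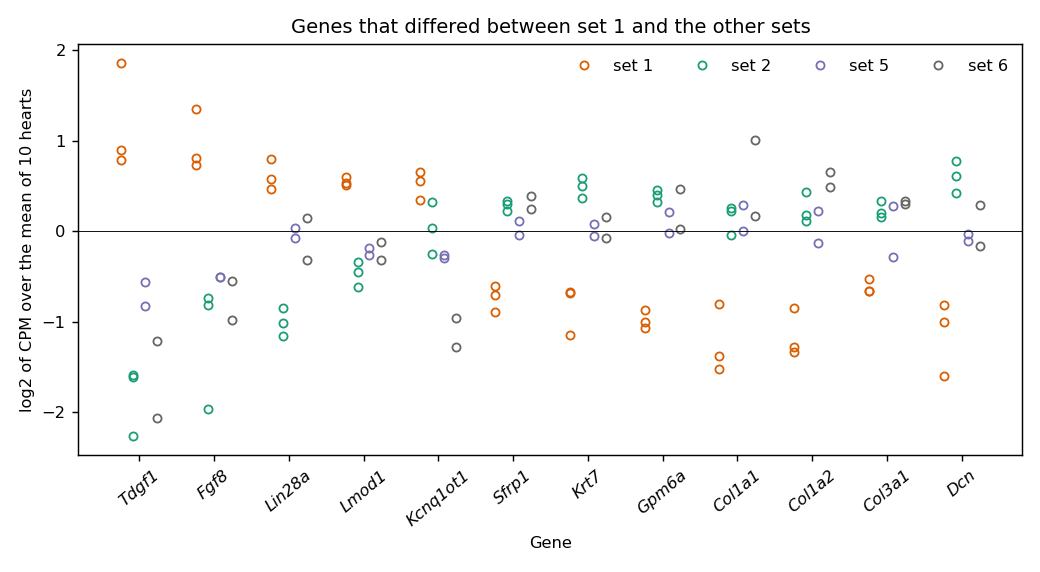
log2 of CPM over the mean of 10 wild-type hearts for 12 genes that passed the edgeR test of set 1 against the other sets; each point is a heart, coloured by set. The 3 set 1 hearts lie above the rest for Tdgf1, Fgf8, Lin28a, Lmod1 and Kcnq1ot1 and below the rest for Sfrp1, Krt7, Gpm6a, the collagens and Dcn.

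By edgeR fewer genes passed for the other sets, an order that DESeq2 did not keep, with 997 genes for set 6 and 951 for set 1. Any difference among the 4 sets was called for 14 genes (0.0931%), and set 2 against the others for 4 genes (0.0266%), 1 higher (0.00665%) and 3 lower (0.0199%). Lin28a was lower in set 2, at 7.89, 7.04 and 6.36 CPM against 11.4 to 24.8 CPM, with a log2 difference of -1.19 ± 0.14 (edgeR adjusted p = 0.0459). Nr6a1, a nuclear receptor of early embryos, was at 4.24, 4.25 and 4.98 against 8.60 to 11.5 CPM (log2 difference -1.14), and Prtg, a receptor of early mesoderm and neural tissue, at 16.7, 22.1 and 22.3 against 33.0 to 45.8 CPM (-0.90). Lgals9, a galectin, was higher, at 14.4, 14.2 and 15.3 CPM, above all 7 other hearts (1.00). The hearts of set 2 did not overlap the others in any of these 4 genes, as the choice of genes by the same test would lead to. The share of all genes for which this held was not counted for set 2. Leaving out any library except replicate 8 left 0 of the 4 calls, and the 14 calls became 0 without replicate 1, 2, 3, 6, 7, 9 or 10, and 43, 47 and 23 without replicates 4, 5 and 8.

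For set 5 and set 6, 0 genes passed with edgeR. At an unadjusted p under 0.05 there were 247 genes for set 5 and 3484 for set 6, against 2795 for set 1, and DESeq2 called 0 and 997. The set 6 count was 938 without replicate 5 and 14 without replicate 8. Sets 5 and 6 hold 2 hearts each, so without replicate 8 set 6 is replicate 6 alone, which is assumed to vary like the hearts of the other sets.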

How the data were processed

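Total RNA of dissected E10.5 hearts was extracted with the Monarch kit and made into libraries with the NEBNext Ultra II RNA kit, per the labels' protocols. The authors deposited raw read counts per gene symbol, whole numbers that were not normalized. The submitters' processing notes name STAR, featureCounts, GRCm38 and mm10, without versions. The annotation, the strand setting and the treatment of multiply matching reads are not given in the sources used here, so overlapping, antisense and near-identical genes are uncertain. No symbol began with mt-, and 0 columns of values lacked a sample.

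The members and the 30 gene lists were chosen with earlier results of these data known. From the 10 wild-type columns, CPM was computed after TMM scaling (factors 0.879 to 1.09) and TPM from GENCODE M21 union exon lengths. M21 held 24374 of 25239 symbols, a further 312 were matched by synonym, and 553 had no length. BCV was estimated gene by gene with edgeR 4.0.16 without moderation (common BCV 0.211), for genes with a mean of at least 5 CPM. Set numbers were tested with the edgeR quasi-likelihood test on 15044 genes passing filterByExpr (minimum count 10, minimum total count 15), with two-sided p-values adjusted by Benjamini-Hochberg over all genes and a threshold of 0.05. The p-values measure only the spread between these samples, which may be technical. Log2 CPM used a prior count of 2. The fits were tested on simulated data. Alternatives were DESeq2 1.42.0, its size factors, other filters, the Xist level as a covariate, longest transcripts, library totals, and leaving out each library.

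Genes named were the 20 with the highest mean TPM, the 15 with the highest BCV off the sex chromosomes, the 10 with the lowest BCV at a mean of at least 50 CPM, up to 8 per set test with the smallest p-values at a mean of at least 5 CPM, Nipbl, Isl1 and list members. Fgf8 and Phlda2 were named as list members. Dcn is in no list and outside this rule and was chosen after its values were seen. Some genes that the rule or the lists hold are not reported here. R 4.3.3, Python 3.11.15 and scipy 1.17.1 were used, and plots were drawn with matplotlib 3.10.9.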

Additional observations from a re-analysis of the deposited data

Results flagged for a closer look

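In 34 of 163 named genes and list sums, 1 heart lay far from the other 9, by a test of its gap to the nearest heart over the whole range. Chance flags about 1 in 20 groups, but many of these genes were chosen for their spread or for a heart that stood out, so the 34 are a description and not set against that share. In 21 of the 34 that heart was replicate 7, many of them red cell genes that moved together and so are not separate cases. There the erythroid sum was 103720 CPM (next 15484), Hbb-y 48889 CPM, Hbb-bh1 32779 CPM, Hba-x 19813 CPM, Slc4a1 900 CPM and Alas2 658 CPM. Also highest there were Hemgn at 243 CPM, Rhd at 135 CPM, Trim10 at 122 CPM, Gata1 at 80.5 CPM, Epb42 at 79.5 CPM, Pdzk1ip1 at 72.1 CPM, Rhag at 66.7 CPM, 1300017J02Rik at 39.0 CPM and Icam4 at 32.6 CPM. Hba-a1, an adult globin, was counted in that heart alone, at 0.0975 CPM.

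The same heart was highest for Lmx1a at 43.9 CPM, for Isl1 at 12.6 CPM (next 8.55), for the proliferation gene Mki67 at 612 CPM (next 406) and for the cell cycle list at 5889 CPM (next 5199). It was lowest for the sum of core cardiac factors, at 1693 CPM (next 2070).

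Replicate 2 was highest for Tdgf1 at 18.8 CPM (next 9.61) and Irx4 at 132 CPM (next 99.9) and lowest for Nr2f2 at 14.4 CPM (next 37.3). Replicate 8 was highest for 4 genes from the liver list of 12, Afp at 12.1 CPM (next 1.81), Alb at 1.01 CPM, Fgb at 0.492 CPM and Hnf4a at 0.383 CPM. The sum of that list was 30.6 CPM in replicate 8 and 10.3 to 21.6 CPM in the others. Replicate 6 was highest for the epithelial genes Cdh1 at 4.39 CPM, Epcam at 4.21 CPM and Cldn6 at 3.79 CPM, and for Col1a1 at 318 CPM (next 192). Replicate 3 was highest for Myl7 at 5211 CPM (next 3654) and replicate 5 for Gapdh at 112 CPM (next 66.6).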

How the results depend on the processing

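List sums kept their mean within the spread between hearts with library totals only and each left-out library, but the erythroid mean of 18248 CPM, whose SD replicate 7 sets, was 8751 CPM without replicate 7. With 1 library left out, 12749 to 12861 genes reached 1 TPM, and 12710 with the longest transcript as length. That length moved the mean TPM of 17 of 38 genes followed by 1 SD or more, 7 of them by over 1.5 times, and kept 16 of the 20 most abundant. Without 1 library the top 10, 100 and 1000 genes held 6.67% to 7.29%, 23.1% to 24% and 55.3% to 56.2% of counts. The 517 variable genes became 322 with the default moderation of edgeR, 360 with the set number in the design and 1071 at a mean of at least 1 CPM, and 392 to 601 without 1 library. Calls between sets depended on the tool. Any difference among sets went from 14 to 1441 with DESeq2, 6 with DESeq2 size factors, 86 without a filter and 101 with the Xist level as a covariate, and ran from 0 to 47 without 1 library. Set 1 went from 110 to 951 with DESeq2, 170 without a filter and 482 with the Xist covariate, and from 0 to 351 without 1 library. Set 2 went from 4 to 250 with DESeq2, 2 with DESeq2 size factors and 12 without a filter, and from 0 to 4 without 1 library. Set 5 stayed at 0 in all 15 alternatives. Set 6 went from 0 to 997 with DESeq2, 2 without a filter and 179 with the Xist covariate, and from 0 to 938 without 1 library. The cause was not tested. With each set centred, Nppa and Myl7 reached r = 0.913 and Wt1 and Upk3b r = 0.764. All 19 genes followed for set 1 kept their direction in all 15 alternatives each, while 64 of their results lost significance, each with 1 library left out; all 19 genes did so without replicate 2. No paired analysis was possible because 1 genotype is described and the replicate numbers are shared only between genotypes. Depth limits genes near 1 count per library.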

Other observations

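The 18 listed imprinted genes, of which 16 reached 1 TPM, summed to 26583 to 35617 CPM, lowest in replicate 8 and highest in replicate 9. Much of this came from H19, Igf2 and Cdkn1c, with mean levels of 12527, 6091 and 3918 CPM. Mest, made from the paternal allele, had 2421 ± 509 TPM with a BCV of 0.107, or 0.0711 without replicate 7. Peg3, a paternally expressed zinc finger gene, ran from 82.8 CPM in replicate 7 to 361 CPM in replicate 6, with a BCV of 0.490.

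The 19 glycolysis genes summed to 16793 to 23178 CPM, and the 24 cell cycle genes to 4705 to 5889 CPM, with 0 of 24 at a BCV of 0.3 or more, near the 4.79% of all genes. Immediate early genes, which respond within minutes to handling, summed to 248 to 318 CPM, and the stress response list to 1573 to 1951 CPM. The coefficient of variation over the 10 hearts was 7.57% for the first of these sums and 7.12% for the second.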
